A study of Mus musculus with 4 samples.

Results

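The nuclei described here are somatostatin (Sst) interneurons of the mouse hippocampus, taken from single-nucleus RNA-seq libraries of 4 genotypes. A nucleus was kept if its barcode held at least 200 genes and no more than 5% of its UMIs (unique molecular identifiers, one per captured transcript) came from mitochondrial genes. It counted as an Sst nucleus if Gad1, Gad2 and Slc32a1 together had at least 2 UMIs, Sst had at least 3 UMIs, and Pvalb and Vip together had fewer than 2 UMIs. These rules picked 284 of 19475 kept nuclei, 1.46% of the total. The members numbered 43 of 5576 nuclei in P301S/EKO, 96 of 2934 in P301S, 66 of 5460 in EKO and 79 of 5505 in WT. The members were thus chosen by measured UMIs of Gad1, Gad2, Slc32a1, Sst, Pvalb and Vip, and the values of these genes are given as a description only.

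Each genotype was 1 droplet library (3′ 10x chemistry) of nuclei pooled from several hippocampi of B6 mice aged 9 months. The P301S/EKO pool carried the P301S tau genotype together with the EKO genotype and held 7 hippocampi. The P301S pool, with P301S alone, held 8 hippocampi. The EKO pool, with EKO alone, held 7 hippocampi, and the WT pool carried neither and also held 7. The labels name neither the P301S line nor the promoter that drives its transgene, and EKO was read as loss of Apoe from the series title and from the Apoe counts below. With 1 library per genotype there is no replicate spread between genotypes: intervals between genotypes cover counting error only, and no p-value is given for them.

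Somatostatin interneurons are inhibitory neurons born in the medial ganglionic eminence. In the hippocampus many sit in stratum oriens or the dentate hilus and send axons to the outer dendrites of excitatory cells, where they gate incoming input. They make GABA through the glutamate decarboxylases Gad1 and Gad2, load it into vesicles through Slc32a1, and pack peptides such as somatostatin and neuropeptide Y into dense-core granules. Hilar somatostatin cells are known for their sensitivity to seizures and to several models of neurodegeneration.

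The promoters of the peptide genes that carry much of what follows are shown here, because Sst is the textbook target of the cAMP response element, an 8-base palindrome bound by CREB. Each sequence is the 250 bases before the RefSeq transcript start on GRCm38.p6, written 5′ to 3′ on the gene's own strand. Capitals mark the palindrome TGACGTCA or a single half-site (TGACG, or CGTCA when read from the other strand; the palindrome holds both). Windows are Sst chr16:23890845-23891094 (minus strand), Scg2 chr1:79440027-79440276 (minus), Crhbp chr13:95444832-95445081 (minus), Cort chr4:149126764-149127013 (minus) and Npy chr6:49822460-49822709 (plus).
Sst: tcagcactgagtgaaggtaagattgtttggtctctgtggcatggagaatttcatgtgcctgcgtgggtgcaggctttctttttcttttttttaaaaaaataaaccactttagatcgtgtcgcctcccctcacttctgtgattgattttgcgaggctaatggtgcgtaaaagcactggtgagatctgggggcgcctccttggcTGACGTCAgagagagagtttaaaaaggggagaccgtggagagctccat
Scg2: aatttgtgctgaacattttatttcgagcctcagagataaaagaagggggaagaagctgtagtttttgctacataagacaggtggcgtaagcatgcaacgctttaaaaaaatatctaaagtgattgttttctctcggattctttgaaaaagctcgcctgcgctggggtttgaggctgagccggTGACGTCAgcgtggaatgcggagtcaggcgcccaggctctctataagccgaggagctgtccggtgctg
Crhbp: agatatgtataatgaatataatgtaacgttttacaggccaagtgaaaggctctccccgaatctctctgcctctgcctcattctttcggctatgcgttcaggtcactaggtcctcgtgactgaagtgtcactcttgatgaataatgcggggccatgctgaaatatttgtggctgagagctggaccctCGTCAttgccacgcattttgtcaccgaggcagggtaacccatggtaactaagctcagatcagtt
Cort: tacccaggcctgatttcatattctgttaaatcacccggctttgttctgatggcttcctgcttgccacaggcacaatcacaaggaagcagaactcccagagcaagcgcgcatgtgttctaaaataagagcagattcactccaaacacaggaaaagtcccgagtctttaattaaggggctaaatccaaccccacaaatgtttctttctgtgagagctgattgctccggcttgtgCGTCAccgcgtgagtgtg
Npy: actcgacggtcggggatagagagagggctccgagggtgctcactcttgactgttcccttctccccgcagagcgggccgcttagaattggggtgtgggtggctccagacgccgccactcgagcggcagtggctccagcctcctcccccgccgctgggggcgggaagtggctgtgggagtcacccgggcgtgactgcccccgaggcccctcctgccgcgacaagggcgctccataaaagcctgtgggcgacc
The whole palindrome stood in the Sst and Scg2 windows, and a half-site stood in the Crhbp and Cort windows. The half-site nearest to the RefSeq start began at position -45 in Sst, -65 in Scg2, -64 in Crhbp and -18 in Cort. Neither spelling of the half-site was in the Npy window. Over all 32851 RefSeq promoters of the same length, 5836 (17.8%) held the half-site on either strand and 508 (1.55%) held the palindrome. The GENCODE gene models of Sst, Scg2 and Crhbp start further upstream and reach into these windows. A match describes letters and is not a measured binding site.

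The gate was first read at its edges. Of the 284 members, 34 nuclei had exactly 3 Sst UMIs, while 75 nuclei with 2 Sst UMIs met the other rules and stayed outside. At the second edge, 100 members had exactly 2 summed UMIs of Gad1, Gad2 and Slc32a1. Outside that edge lay 137 nuclei with 1 such UMI and 111 with none that met the Sst and Pvalb/Vip rules; only 3 nuclei were lost to the Pvalb and Vip rule. Npy among the members with exactly 3 Sst UMIs stood at 954 CPM (counts per 1000000 UMIs of the summed nuclei) in P301S/EKO, 262 CPM in P301S, 673 CPM in EKO and 270 CPM in WT. Among the nuclei with 2 Sst UMIs it was 441, 36.5, 356 and 344 CPM in the same order.

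Apoe, the gene whose loss EKO stands for, was read in every library as a check of the labels. The gated nuclei of P301S/EKO held 0 Apoe UMIs, those of P301S 3214, those of EKO 1 and those of WT 208. The gated UMI totals behind these counts were 94676 in P301S/EKO, 347645 in P301S, 158876 in EKO and 244956 in WT, and the median gated nucleus held 1948, 2324.5, 2056 and 2551 UMIs. No gated barcode was shared between libraries, and 14 to 52 kept barcodes were shared between each pair of libraries.

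The P301S library stood apart in one respect that touches many of the values below. A nucleus was called mixed if a set of markers of excitatory neurons, oligodendrocytes, astrocytes and microglia, among them Slc17a7, Mbp, Slc1a2 and Csf1r, summed to at least 3 UMIs. Mixed nuclei made up 8 of 43 members in P301S/EKO (18.6%), 40 of 96 in P301S (41.7%), 9 of 66 in EKO (13.6%) and 21 of 79 in WT (26.6%). A set of 6 microglial genes, among them Csf1r, Cx3cr1, P2ry12, C1qa and C1qb, together reached at least 5 UMIs in 2, 14, 3 and 5 members in that order. The most in a single member was 10 in P301S/EKO, 101 in P301S, 22 in EKO and 16 in WT. Of the 284 members, 20 had doublet scores in the range that a doublet rate of 0.8% per 1000 barcodes would remove, and 13 of these were mixed. The main results between genotypes are therefore also given over the 206 members left when mixed nuclei are taken out. That step removed all 14 of the P301S members with at least 5 microglial UMIs, all 3 in EKO and 4 of 5 in WT, but neither of the 2 in P301S/EKO. Where microglial transcripts move with a result, values are also given without members that held 2 or more microglial UMIs, which leaves 37, 61, 62 and 70 members in P301S/EKO, P301S, EKO and WT.

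**Figure D1:**
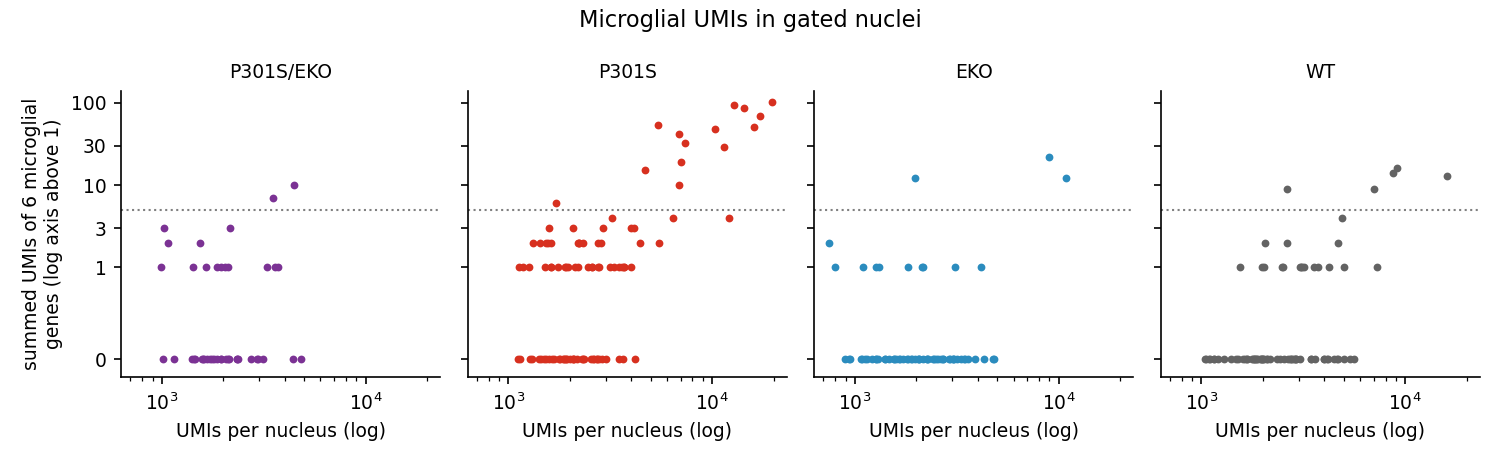
Summed UMIs of 6 microglial genes (log axis above 1) against total UMIs (log axis) for each gated Sst nucleus, 1 panel per library; the dotted line marks 5 UMIs. Of the P301S members 14 lie at or above the line, against 2 in P301S/EKO, 3 in EKO and 5 in WT.

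Sst itself (somatostatin, 16:23889573-23890958, minus strand; gene positions are from GENCODE vM21 on GRCm38) had a median of 7 UMIs per member in P301S/EKO, 7 in P301S, 9 in EKO and 6 in WT. The highest single nucleus held 34, 107, 49 and 45 Sst UMIs in that order. Summed over members, Sst stood at 4478 CPM in P301S/EKO, 2894 CPM in P301S, 4847 CPM in EKO and 2417 CPM in WT. In the GABAergic nuclei outside the gate it lay between 70.4 and 95.2 CPM. The vesicular GABA transporter Slc32a1 had a UMI in 90.7%, 91.7%, 87.9% and 89.9% of members, and Gad1 in 37.2%, 44.8%, 56.1% and 51.9%, in the same order of libraries. In excitatory nuclei (at least 3 Slc17a7 UMIs) the Slc32a1 share was at most 7.41% and the Gad1 share at most 7.46%. Slc32a1 and Gad1 are genes of the gate and of the excitatory rule, so their shares in both kinds of nuclei follow from the rules.

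**Figure D2:**
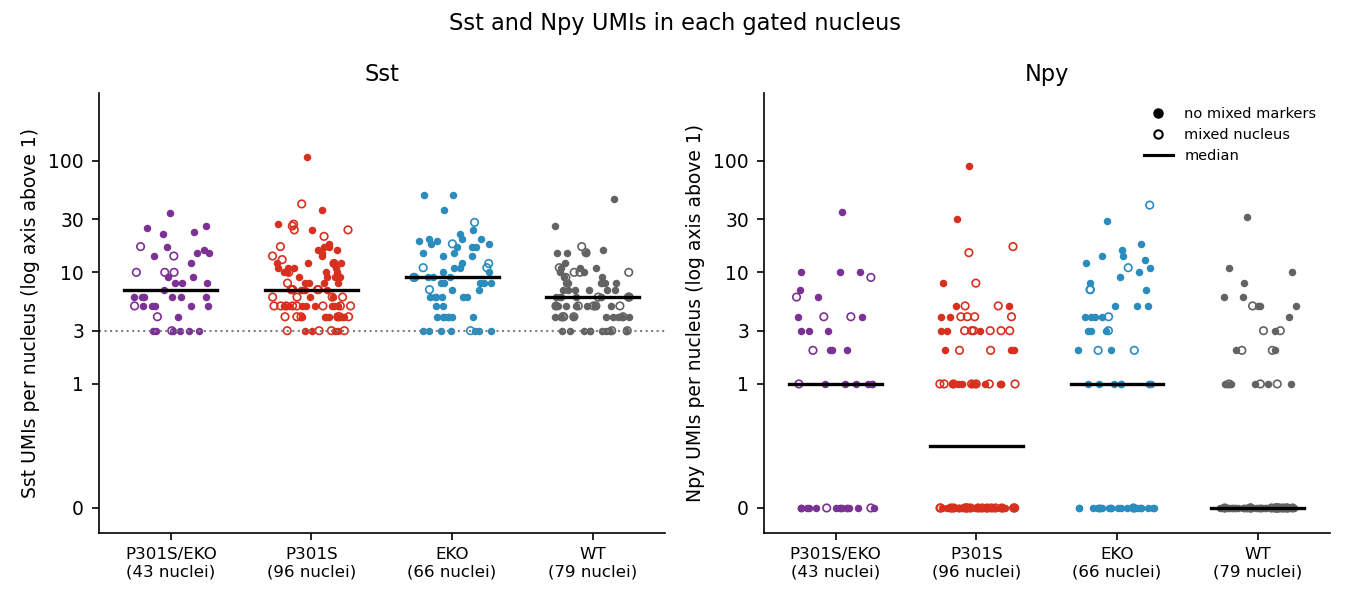
UMIs of Sst and of Npy in each gated nucleus by library (log axis above 1), open points for mixed nuclei and bars for the median; the dotted line marks the gate's 3 Sst UMIs. The Sst medians are 7, 7, 9 and 6 UMIs and the Npy medians 1, 0.5, 1 and 0 UMIs in P301S/EKO, P301S, EKO and WT.

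Among markers of Sst cells that the gate did not use, Npy (neuropeptide Y, 6:49822710-49829507, plus strand) was found in 141 of the 284 members, and the granule peptide precursor Vgf in 152. Npy had a UMI in 60.5% of P301S/EKO members, 50% of P301S members, 60.6% of EKO members and 34.2% of WT members. In excitatory nuclei, which should lack it, the Npy share was 9.64%, 7.41%, 2.22% and 6.72%, at median depths of 2684, 3542, 2880 and 3250 UMIs per nucleus. Thinned to 1000 UMIs per nucleus, Npy was seen in 52.4% of 42 P301S/EKO members, 28.1% of 96 P301S members, 45.9% of 61 EKO members and 20.3% of 79 WT members. Both P301S/EKO and EKO members thus showed Npy in a larger share of nuclei than P301S or WT members, with and without thinning.

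Crhbp, the binding protein of corticotropin-releasing hormone, had a UMI in 37.2%, 32.3%, 51.5% and 32.9% of members in P301S/EKO, P301S, EKO and WT, and in at most 2.99% of excitatory nuclei. Thinned, its shares were 31.0%, 13.5%, 36.1% and 21.5%. Elfn1, a postsynaptic protein that sets the strong facilitation of inputs onto Sst cells, was found in 30.2%, 34.4%, 24.2% and 30.4% of members, and in at most 5.22% of excitatory nuclei. Lhx6, the transcription factor that marks descent from the medial ganglionic eminence, was found in 11.6%, 19.8%, 21.2% and 13.9%, against at most 2.24% of excitatory nuclei.

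Some markers were close to absent. Chodl, which marks long-range projecting Sst cells, had 0 UMIs in P301S/EKO, 1 in P301S, 0 in EKO and 2 in WT. Chrna2, the nicotinic receptor subunit of oriens-lacunosum moleculare cells, had 1 UMI in EKO and 0 UMIs in the other libraries. The limits these zeros allow on a share of members with a UMI are 6.98% in P301S/EKO, 3.13% in P301S, 4.55% in EKO and 3.80% in WT. Htr3a, a serotonin receptor of interneurons from the caudal ganglionic eminence, had a UMI in 3 members of P301S and in none of the other libraries.

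The members were not uniform in their peptides. Over all libraries 141 members had an Npy UMI and 143 had none, with median depths of 2586 and 1966 UMIs. Crhbp stood at 378 CPM in the members with Npy and 192 CPM in those without, and was higher with Npy in 4 of 4 libraries. Vgf, the precursor of several granule peptides, stood at 604 CPM with Npy and 375 CPM without, again higher in 4 of 4 libraries. Cort (cortistatin, a close relative of somatostatin) was at 143 CPM with Npy and 40.1 CPM without, higher in 3 of 4 libraries.

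Other genes ran the opposite way. Nxph1, a neurexin ligand secreted by interneurons, stood at 213 CPM with Npy and 321 CPM without, higher with Npy in 0 of 4 libraries. Elfn1 was at 96.6 CPM with Npy and 169 CPM without, higher with Npy in 1 of 4 libraries. These splits are descriptions of the same nuclei and carry no test; nuclei with Npy were deeper, and the part of depth in them was not tested.

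Sst nuclei were then compared with other interneurons in the same libraries, where the 4 libraries serve as replicates. The Vip gate (113 nuclei, 25 to 32 per library) holds cells that mostly inhibit other interneurons, and the Lamp5 or Ndnf gate (133 nuclei, 25 to 46 per library) holds neurogliaform and related cells. The Pvalb gate (47 nuclei, 8 to 19 per library) was too small to enter. UMIs were summed per gate and library and tested with edgeR's quasi-likelihood test with library as a block and Benjamini-Hochberg adjustment over 1794 genes; genes used by any gate were left out. Against the Vip gate 72 genes differed at an adjusted p under 0.05 (4.01% of those tested), 25 higher (1.39%) and 47 lower (2.62%) in Sst nuclei. Against the Lamp5 or Ndnf gate 97 differed (5.41%), 37 higher (2.06%) and 60 lower (3.34%). Without the WT library the counts were 47 and 64. The library block takes up differences shared by all gates of a pool. These p-values therefore measure how the ratio between gates varies from pool to pool. Each pool is a different genotype, so genotype and pool cannot be told apart in that spread.

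Only 9 genes (0.502%) were higher in Sst nuclei than in both gates tested. Crhbp led them. It stood at 444, 150, 623 and 253 CPM in the Sst nuclei of P301S/EKO, P301S, EKO and WT, against 0, 7.38, 0 and 0 CPM in the Vip gate and 0, 7.49, 0 and 21.8 CPM in the Lamp5 or Ndnf gate. The ranges did not overlap, and the fitted log2 ratio was 5.96 over Vip nuclei (SE 0.58, edgeR adjusted p = 1.26e-09) and 5.01 over Lamp5 or Ndnf nuclei (SE 0.46, edgeR adjusted p = 5.13e-10). In the Pvalb gate, which was not tested, Crhbp stood at 152, 166, 70.0 and 37.7 CPM on 4, 15, 2 and 2 UMIs.

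Satb1, a chromatin organizer needed for the maturation of Sst cells, was higher than in both gates too. Its level was 137, 144, 132 and 151 CPM in Sst nuclei, at most 36.9 CPM in Vip nuclei and at most 21.8 CPM in Lamp5 or Ndnf nuclei. Its log2 ratio was 2.49 (SE 0.47) over Vip nuclei and 2.98 (SE 0.48) over Lamp5 or Ndnf nuclei, with edgeR adjusted p = 0.000529 and 3.78e-05. Its Sst range lay wholly above those of both these gates. The Pvalb gate held Satb1 at 75.8, 77.4, 175 and 132 CPM, which overlaps the Sst range.

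The rest included AMPA receptor subunits. Gria3 had log2 ratios of 1.29 over Vip and 1.05 over Lamp5 or Ndnf nuclei, and Gria1 had 0.98 and 0.59. In the Pvalb gate, whose cells also come from the medial eminence, Gria3 stood at 303, 453, 455 and 415 CPM and Gria1 at 909, 520, 1329 and 792 CPM, with no test against Sst nuclei. Of the 9 glutamate receptor genes tested, 4 were higher and 0 lower than in Vip nuclei, where 1.39% and 2.62% of all genes were. Against Lamp5 or Ndnf nuclei 3 were higher and 1 lower, where 2.06% and 3.34% of all genes were. The median log2 ratios of the 9 genes were 0.57 and 0.18. Over all 1794 genes the medians were 0.00 and 0.01. Grm5, a group I metabotropic receptor, passed against Vip nuclei (log2 0.98) but not against Lamp5 or Ndnf nuclei (0.19, edgeR adjusted p = 0.66), while Gria4 passed only against the Lamp5 or Ndnf gate (log2 1.12, edgeR adjusted p = 0.0452).

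The others were single genes of several kinds. Cdh13, an atypical cadherin, had log2 ratios of 1.68 over Vip and 2.19 over Lamp5 or Ndnf nuclei. The teneurin Tenm2 had 1.25 and 1.02, and the GPI-anchored Opcml had 0.94 and 0.72. Lrtm1 (0.82 and 1.27) and Tmem91 (0.90 and 1.14) completed the 9. Of 23 tested genes of the synaptic adhesion list, 1 was higher and 2 lower against Vip nuclei, where 1.39% and 2.62% of all genes were. Against Lamp5 or Ndnf nuclei 2 were higher and 7 lower, where 2.06% and 3.34% of all genes were, with median log2 ratios of -0.20 and -0.13 over the list.

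The 20 genes (1.11%) lower than in both gates included several known markers of caudal ganglionic eminence cells. Cnr1, the cannabinoid receptor of Cck basket cells, stood at 73.9, 80.5, 88.1 and 57.1 CPM in Sst nuclei, against at least 487 CPM in every Vip library and at least 290 CPM in every Lamp5 or Ndnf library. Its log2 ratios were -3.02 and -2.36. Cck itself had -2.85 and -1.45, the chemokine Cxcl14 had -3.56 and -2.74, and the neuregulin receptor Erbb4 had -2.19 and -2.50. The secreted guidance cue Sema3c (-2.95 and -3.57), the receptor tyrosine kinase Kit (-2.42 and -3.45) and the transcription factor Nfib (-1.44 and -2.40) were lower too. The lineage transcript Dlx6os1 (-2.47 and -1.93) was the member of the medial eminence list that fell below both gates.

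**Figure D3:**
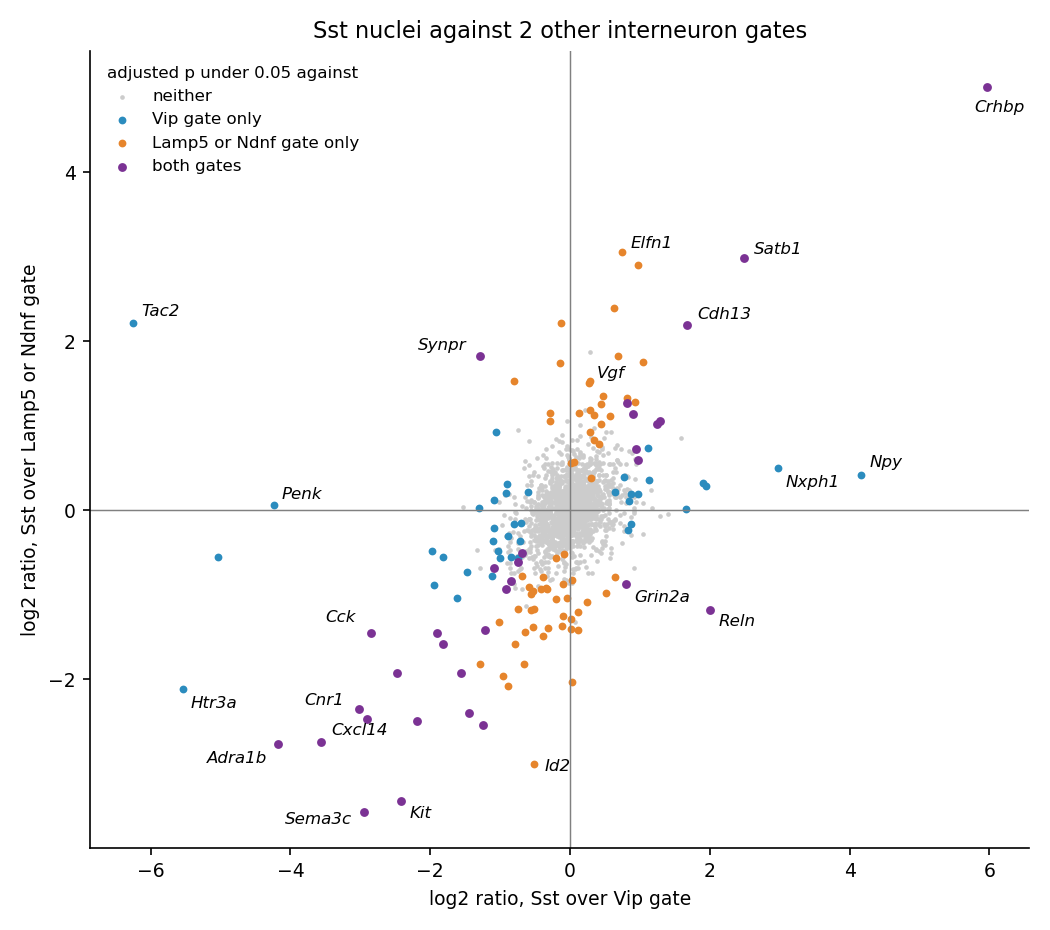
Fitted log2 ratio of Sst over Lamp5 or Ndnf nuclei (vertical) against Sst over Vip nuclei (horizontal) for 1794 genes, coloured by which edgeR test passed an adjusted p under 0.05. Crhbp, Satb1 and Cdh13 lie high on both axes; Sema3c, Kit and Cnr1 lie low on both; Reln, Synpr and Grin2a passed in opposite directions.

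Several peptides separated Sst nuclei from only one of the gates. Npy stood at 1405, 765, 1819 and 498 CPM in Sst nuclei and at 52.0, 44.3, 175 and 14.3 CPM in Vip nuclei, a log2 ratio of 4.17 (SE 0.35, edgeR adjusted p = 4.28e-11). Lamp5 or Ndnf nuclei, which include the Npy-rich neurogliaform cells, held 720, 1019, 715 and 545 CPM, and the log2 ratio of 0.41 had an edgeR adjusted p of 0.347. The precursors of neurokinin B and enkephalin, Tac2 and Penk, were lower than in Vip nuclei by log2 ratios of -6.25 and -4.24, as was Htr3a at -5.54.

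Vgf passed only against Lamp5 or Ndnf nuclei (log2 1.51, edgeR adjusted p = 1.58e-05), and so did Elfn1 (3.06, edgeR adjusted p = 0.000122). Elfn1 stood at 148, 135, 120 and 110 CPM in Sst nuclei and at 54.0, 15.0, 0 and 0 CPM in Lamp5 or Ndnf nuclei. The transcriptional regulator Id2 was lower than in Lamp5 or Ndnf nuclei (log2 -3.01, edgeR adjusted p = 5.27e-07). Nxph1 was higher than in Vip nuclei (2.97) with 0.50 against Lamp5 or Ndnf nuclei (edgeR adjusted p = 0.373).

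For 3 genes the fitted ratios put the Sst nuclei between the Vip and the Lamp5 or Ndnf gates, although in the WT library Reln was above both. Reln, the secreted glycoprotein reelin, stood at 84.5, 161, 170 and 143 CPM in Sst nuclei, 0, 44.3, 0 and 57.2 CPM in Vip nuclei and 540, 285, 630 and 120 CPM in Lamp5 or Ndnf nuclei. Its log2 ratios were 2.00 (edgeR adjusted p = 0.0143) and -1.18 (0.00603). The NMDA receptor subunit Grin2a took the same middle place (0.80 and -0.87). The vesicle protein Synpr was lower than in Vip nuclei and higher than in Lamp5 or Ndnf nuclei (-1.28 and 1.82). None of 18 oxidative phosphorylation genes and none of 19 ribosomal protein genes passed in either edgeR comparison. Over all 1794 genes 4.01% passed against Vip and 5.41% against Lamp5 or Ndnf nuclei, so few calls were due in lists this short. At an unadjusted edgeR p under 0.05, 227 and 259 genes of all kinds passed, and DESeq2 called 46 and 52.

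The share of Sst nuclei among GABAergic nuclei was 43 of 386 (11.1%, exact Clopper-Pearson 95% interval 8.18 to 14.7) in P301S/EKO, 96 of 475 (20.2%, 16.7 to 24.1) in P301S, 66 of 432 (15.3%, 12.02 to 19.0) in EKO and 79 of 517 (15.3%, 12.3 to 18.7) in WT. The P301S/EKO and P301S intervals did not overlap. Without mixed nuclei the shares were 13.2% (9.38 to 17.9) in P301S/EKO, 20.5% (15.9 to 25.8) in P301S, 15.0% in EKO and 18.8% in WT, and the P301S/EKO and P301S intervals overlapped. The gate needs 3 Sst UMIs, and GABAergic nuclei had medians of 1739, 2450, 1686.5 and 2367 UMIs in P301S/EKO, P301S, EKO and WT, so that P301S and WT were close in depth. Thinned to 1000 UMIs before the gate, the shares were 10.8%, 12.5%, 9.09% and 10.3% (20 of 185, 25 of 200, 20 of 220 and 23 of 223), and all 4 intervals overlapped. Thinning left out 1247, 0, 1060 and 129 barcodes that were too shallow. A lower share of Sst nuclei in P301S or in P301S/EKO than in WT was not detectable at this depth.

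Between genotypes a gene was tested if it had at least 50 UMIs over both libraries and called if its CPM ratio was at least 1.5-fold either way. EKO over WT gave 189 called genes of 1103 (17.1%), 98 higher (8.88%) and 91 lower (8.25%). P301S/EKO over P301S gave 382 of 1380 (27.7%), 100 higher (7.25%) and 282 lower (20.4%). These comparisons set Apoe-deficient against Apoe-carrying nuclei and share no library. The interval of the ratio lay wholly beyond 1.5-fold for 6 genes higher (0.544%) and 6 lower (0.544%) in EKO over WT, and for 4 higher (0.29%) and 38 lower (2.75%) in P301S/EKO over P301S. The shares called are the background against which counts within a list are read.

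Several peptide genes were higher in the Apoe-deficient nuclei. With Sst left out because it belongs to the gate, 9 neuropeptide and granule genes were tested in EKO over WT, of which 5 were called higher (Npy, Crhbp, Cort, Vgf and Scg2) and 1 lower (Pcsk2). Their median log2 ratio was 0.88, against 0.04 over all genes tested. In P301S/EKO over P301S 4 of 8 were higher (Npy, Crhbp, Vgf and Scg2) and 0 lower, with a median of 0.52 against -0.09 over all. Without mixed nuclei 2 of 8 were higher (Npy and Crhbp) and 1 lower in EKO over WT, where 9.48% of all genes were called higher, and 2 of 8 were higher (Crhbp and Vgf) in P301S/EKO over P301S, where 4.03% were. The medians were then 0.32 in EKO over WT, against 0.04 over all genes, and 0.07 in P301S/EKO over P301S, against -0.06. The summed list had ratios of 1.29 (1.16 to 1.44) and 1.10 (0.964 to 1.25) on that reading, so in P301S/EKO over P301S the interval of the sum included 1. Of the 626 list UMIs in P301S there, 89 were Npy UMIs of 1 nucleus.

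Among the genes called higher in EKO over WT, mitochondrial and sex-linked genes aside, Npy had the interval farthest above 1.5-fold. It held 1405 CPM (95% Poisson interval 1176 to 1665) in P301S/EKO, 765 CPM (676 to 863) in P301S, 1819 CPM (1615 to 2041) in EKO and 498 CPM (414 to 595) in WT. Both Apoe-deficient libraries were above both Apoe-carrying ones, and no Apoe-deficient interval touched an Apoe-carrying one. The ratio was 3.65 (exact 95% interval 2.95 to 4.55) for EKO over WT and 1.84 (1.48 to 2.27) for P301S/EKO over P301S.

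Without mixed nuclei Npy stood at 1499, 1378, 1773 and 761 CPM in P301S/EKO, P301S, EKO and WT. The EKO over WT ratio was then 2.33 (1.83 to 2.97), while P301S/EKO over P301S was 1.09 (0.846 to 1.39). WT was then the lowest library. Thinned to 1000 UMIs before the gate, Npy was at 1700, 800, 1600 and 522 CPM. A single P301S nucleus held 89 of the 266 Npy UMIs of its library. It was not mixed, so it stayed in the reading without mixed nuclei. How far the P301S value and the 1.09 ratio there rest on this nucleus was not tested. In the other GABAergic nuclei, which lack the Sst gate, Npy stood at 270.5, 222, 294 and 148 CPM, an EKO over WT ratio of 1.99; whether the Sst nuclei differ more than these was not tested.

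Crhbp stood at 444 CPM (320 to 600) in P301S/EKO, 150 CPM (112 to 196) in P301S, 623 CPM (506 to 759) in EKO and 253 CPM (194 to 325) in WT. Its ratio was 2.46 (1.77 to 3.44) for EKO over WT and 2.97 (1.93 to 4.54) for P301S/EKO over P301S. Without mixed nuclei the ratios were 1.74 (1.20 to 2.55) and 1.65 (1.01 to 2.67), so that Crhbp and Psma1 were the 2 genes still called higher in both comparisons, of 376 tested (0.532%). On the same reading 9 were lower in both (2.39%). Over all members 21 of 1034 genes were higher in both (2.03%) and 24 lower (2.32%).

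Vgf stood at 898, 380, 743 and 392 CPM in P301S/EKO, P301S, EKO and WT, with ratios of 1.90 (1.44 to 2.51) for EKO over WT and 2.37 (1.78 to 3.13) for P301S/EKO over P301S. Without mixed nuclei these were 1.36 and 1.87. Scg2, the granule protein secretogranin II, stood at 592, 337, 554 and 302 CPM, with ratios of 1.83 and 1.76, and 1.45 and 1.32 without mixed nuclei. Resp18, an endocrine granule protein, stood at 560, 348, 592 and 204 CPM, with ratios of 2.90 (2.04 to 4.17) and 1.61 (1.14 to 2.24), and 2.31 and 1.18 without mixed nuclei. All 3 were high in both Apoe-deficient libraries, and the P301S value moved most when mixed nuclei were dropped.

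Cort was high in EKO alone. It held 9, 23, 40 and 13 UMIs, or 95.1, 66.2, 252 and 53.1 CPM, in P301S/EKO, P301S, EKO and WT. The EKO over WT ratio was 4.74 (2.49 to 9.67), and 4.30 without mixed nuclei, but P301S/EKO over EKO was 0.378 (0.161 to 0.791) at fewer than the 50 UMIs set for a call. One EKO nucleus held 10 of the 40 UMIs. The prohormone convertase Pcsk2, which cuts peptide precursors in granules, ran the other way at 412, 590, 422 and 755 CPM, an EKO over WT ratio of 0.558 (0.416 to 0.742), and 0.508 without mixed nuclei.

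**Figure D4:**
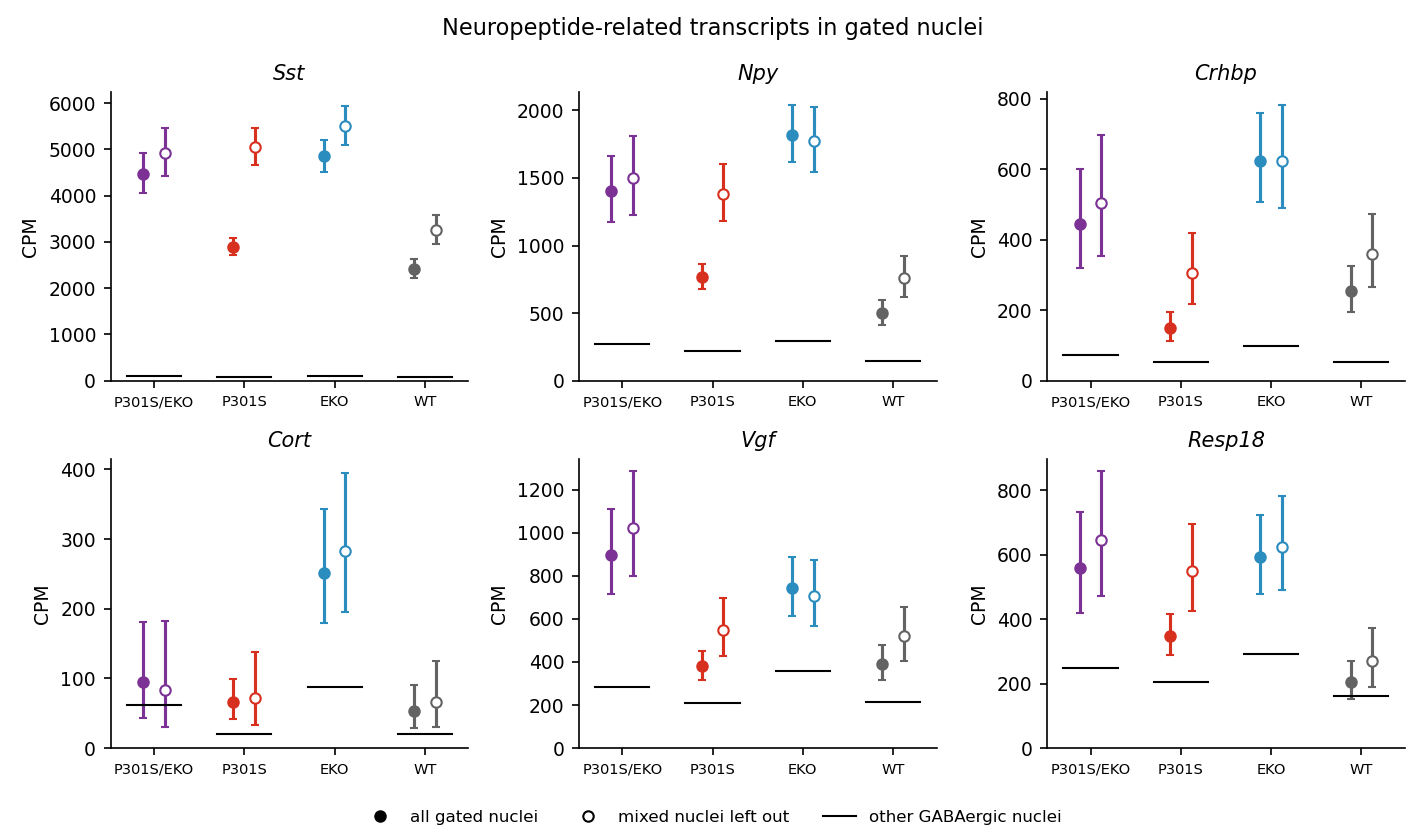
CPM of Sst, Npy, Crhbp, Cort, Vgf and Resp18 in gated nuclei by library, filled for all members and open with mixed nuclei left out; error bars are 95% Poisson intervals (counting error only) and black lines the other GABAergic nuclei. WT is lowest for Npy on both readings, while the P301S value of Sst, Npy, Crhbp, Vgf and Resp18 moves up when mixed nuclei are dropped.

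The nuclei just outside the gate gave a second reading of these peptides in other nuclei of the same libraries. There were 248 nuclei that met the Sst and Pvalb/Vip rules but had fewer than 2 UMIs of the GABA genes: 68 in P301S/EKO, 55 in P301S, 49 in EKO and 76 in WT. Npy there stood at 1506, 626, 1572 and 749 CPM, Crhbp at 430, 116, 619 and 262 CPM, and Resp18 at 663, 297, 512 and 239 CPM. For all 3 the Apoe-deficient libraries were again above the Apoe-carrying ones. Cort was at 172, 12.9, 226 and 27.1 CPM, high in both Apoe-deficient libraries here. In the other GABAergic nuclei the EKO over WT ratios were 1.87 for Crhbp, 1.66 for Vgf, 1.82 for Resp18 and 4.20 for Cort. These nuclei share the library pools with the members, so they are no further replicate of a genotype.

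The markers Elfn1 and Satb1, which are not peptides, were not called between genotypes. Elfn1 stood at 148, 135, 120 and 110 CPM and Satb1 at 137, 144, 132 and 151 CPM in P301S/EKO, P301S, EKO and WT, and neither passed 1.5-fold where it was tested. Reln stood at 84.5, 161, 170 and 143 CPM, with P301S/EKO over P301S at 0.525 (0.216 to 1.11), a call on 8 UMIs in P301S/EKO, and 0.487 without mixed nuclei. In EKO over WT the 4 tested genes of the Sst interneuron list had 3 calls higher (Cort, Npy and Crhbp) and 0 lower. Of all genes tested there, 8.88% were higher and 8.25% lower. These 3 genes also belong to the peptide list above, so they are not a second result. Summed, the Sst interneuron list gave a ratio of 2.38 (2.08 to 2.73), and 1.68 without mixed nuclei.

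Outside the peptides, the EKO over WT calls included adhesion genes. Of 16 synaptic adhesion genes tested, 0 were higher and 6 lower (among them Ntng1, Ptprd, Tenm1, Robo2 and Flrt3), with a median log2 ratio of -0.43, where 8.88% of all genes were higher and 8.25% lower. Ntng1, the netrin-G1 of presynaptic membranes, stood at 190, 147, 113 and 249 CPM in P301S/EKO, P301S, EKO and WT, an EKO over WT ratio of 0.455 (0.253 to 0.780), and 0.167 on 5 and 34 UMIs without mixed nuclei. The receptor phosphatase Ptprd stood at 232, 325, 126 and 245 CPM, a ratio of 0.514 (0.293 to 0.865), and 0.32 on 9 and 32 UMIs without mixed nuclei. Without mixed nuclei 4 of 10 adhesion genes were lower, where 7.87% of all genes were. In P301S/EKO over P301S 1 of 16 was higher and 1 lower, where 7.25% of all genes were higher and 20.4% lower, and 0 of 8 were called without mixed nuclei.

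Few genes of the ApoE receptor family reached the minimum. Lrp1b, a large lipoprotein receptor, stood at 201, 270, 138 and 331 CPM in P301S/EKO, P301S, EKO and WT, an EKO over WT ratio of 0.419 (0.249 to 0.678), and 0.40 without mixed nuclei. Lrp1 stood at 211, 239, 157 and 89.8 CPM, with a P301S over WT ratio of 2.66 (1.65 to 4.47), and 2.90 without mixed nuclei. Voltage-gated channel genes had 0 calls of 9 in EKO over WT; in P301S/EKO over P301S 5 of 11 were lower, where 20.4% of all genes were, and Kcna1 led them at 63.4 CPM in P301S/EKO against 219 CPM in P301S. Without mixed nuclei 2 channel genes reached the minimum there and 0 were called.

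The P301S genotype was read in a second pair of comparisons that share no library. P301S over WT gave 374 called genes of 2012 (18.6%), 265 higher (13.2%) and 109 lower (5.42%). When libraries were scaled by median-of-ratios factors instead of total UMIs, 194 of 360 calls were higher (53.9%), against 70.9% by totals, and the median log2 ratio over all genes was -0.04, against 0.06. The interval lay wholly beyond 1.5-fold for 42 genes higher (2.09%) and 4 lower (0.199%). P301S/EKO over EKO gave 94 of 558 (16.8%), 43 higher (7.71%) and 51 lower (9.14%). Without mixed nuclei 93 of 600 genes were higher (15.5%) and 43 lower (7.17%) in P301S over WT, and 35 of 375 were higher (9.33%) and 40 lower (10.7%) in P301S/EKO over EKO. Over both comparisons 9 of 558 genes were higher in both (1.61%) and 4 lower in both (0.717%), and without mixed nuclei 6 of 362 were higher in both (1.66%) and 4 lower (1.1%).

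Prnp, the prion protein gene (2:131909928-131938429, plus strand), was high in both P301S libraries. It held 62, 186, 47 and 66 UMIs, or 655 CPM (502 to 840) in P301S/EKO, 535 CPM (461 to 618) in P301S, 296 CPM (217 to 393) in EKO and 269 CPM (208 to 343) in WT. The intervals of the P301S libraries lay wholly above those of the others. The ratio was 1.99 (1.49 to 2.67) for P301S over WT and 2.21 (1.49 to 3.31) for P301S/EKO over EKO, and 2.44 and 2.55 without mixed nuclei. Prnp was also higher in the other GABAergic nuclei, at 533, 473, 331 and 314 CPM. Some P301S lines carry their tau cDNA in a vector built from the mouse prion gene; the labels do not name the line, and whether vector transcripts count as Prnp here was not tested.

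Mapt, which encodes tau itself, stood at 232, 288, 164 and 151 CPM in P301S/EKO, P301S, EKO and WT. P301S over WT was 1.90 (1.29 to 2.86), and P301S/EKO over EKO was 1.42 (0.767 to 2.61) on 48 UMIs, below the 50 set for a call. Without mixed nuclei the ratios were 1.601 (0.902 to 2.89) and 1.59 (0.770 to 3.27). The point values were higher in both P301S libraries, and without mixed nuclei both intervals included 1.

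Nxph1 was called higher in the Sst nuclei of both P301S libraries and not in their other GABAergic nuclei. It stood at 327 CPM (223 to 465) in P301S/EKO, 328 CPM (271 to 394) in P301S, 183 CPM (122 to 262) in EKO and 180 CPM (131 to 241) in WT. The ratios were 1.83 (1.28 to 2.65) for P301S over WT and 1.79 (1.05 to 3.09) for P301S/EKO over EKO, and 2.17 and 1.82 without mixed nuclei. In the other GABAergic nuclei they were 0.833 (0.664 to 1.04) and 0.669 (0.509 to 0.876). In the nuclei just outside the gate Nxph1 was at 232, 213, 214 and 185 CPM, where neither ratio would reach 1.5-fold. The difference between Sst and other GABAergic nuclei was not tested.

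Gria3, an AMPA receptor subunit that was higher in Sst than in Vip and in Lamp5 or Ndnf nuclei, was low in both P301S libraries. It lies on the X chromosome, which the naming rule left out, and is named here after its values were seen; the sex of the pooled mice is not given in the labels. It stood at 317 CPM (214 to 452) in P301S/EKO, 314 CPM (257 to 378) in P301S, 642 CPM (524 to 779) in EKO and 547 CPM (458 to 648) in WT. The ratios were 0.573 (0.441 to 0.744) for P301S over WT and 0.494 (0.317 to 0.748) for P301S/EKO over EKO, and 0.721 (0.507 to 1.02) and 0.446 (0.265 to 0.721) without mixed nuclei. In the other GABAergic nuclei Gria3 ratios were 0.801 and 0.791. The nuclei just outside the gate held 267, 348, 524 and 541 CPM, again lower in both P301S libraries.

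**Figure D5:**
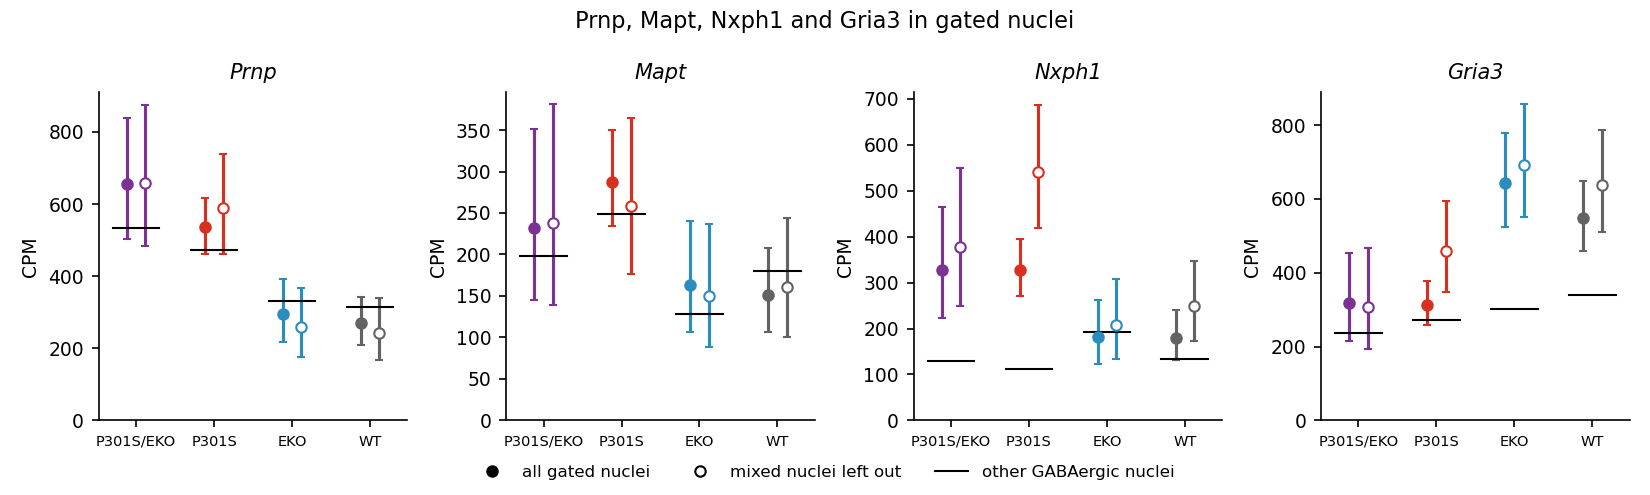
CPM of Prnp, Mapt, Nxph1 and Gria3 in gated nuclei by library, filled for all members and open with mixed nuclei left out; error bars are 95% Poisson intervals (counting error only) and black lines the other GABAergic nuclei. Prnp, Mapt and Nxph1 lie higher, and Gria3 lower, in P301S/EKO and P301S than in EKO and WT.

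No other glutamate receptor gene was called: 0 of 11 tested were higher and 1 (Gria3) lower in P301S over WT, with a median log2 ratio of -0.28 against 0.06 over all genes, and 0 of 7 were higher and 1 lower in P301S/EKO over EKO. Trim2, a ubiquitin ligase of axons, was higher in both comparisons at 423 and 331 CPM in P301S/EKO and P301S, against 239 and 200 CPM in EKO and WT. Its ratios were 1.77 (1.10 to 2.83) for P301S/EKO over EKO and 1.65 (1.17 to 2.36) for P301S over WT, and 2.09 and 2.03 without mixed nuclei. The non-coding transcript Gm26916 was higher in both as well (1.68 and 1.79), with 1.88 and 1.43 without mixed nuclei. Tmem108 was lower in both (0.184 and 0.620), but 28 of the 64 EKO UMIs of Tmem108 came from 1 nucleus.

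Dpysl2, a microtubule-binding protein of axon growth, and Myef2 completed the 4 genes lower in both. Dpysl2 stood at 148, 129, 258 and 204 CPM and Myef2 at 264, 201, 403 and 343 CPM in P301S/EKO, P301S, EKO and WT. Without mixed nuclei neither was below the 1.5-fold line in P301S over WT (0.837 and 0.779). The microtubule genes Stmn3 and Stmn4 were higher in P301S over WT (1.89 and 2.71) with ratios of 0.697 and 1.19 in P301S/EKO over EKO, where Stmn4 had only 41 UMIs.

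Several transcripts of immune and phagocytic cells were highest in P301S over all members, where mixed nuclei were most frequent. The protease cathepsin D, Ctsd, stood at 433, 1355, 183 and 229 CPM in P301S/EKO, P301S, EKO and WT. P301S over WT was 5.93 (4.49 to 7.97) with all members and 1.504 (0.987 to 2.31) without mixed nuclei; P301S/EKO over EKO was 2.37 and 2.52. Without mixed nuclei Ctsd was at 462, 451, 183 and 300.2 CPM. The 5 genes highest by interval in P301S over WT were C4b, Cd74, Ctss, Apoe and C1qa. Apoe was not particular to the gate: it had a UMI in 100% of gated, 97.6% of other GABAergic and 99.1% of excitatory P301S nuclei. In WT these shares were 74.7%, 78.8% and 81.3%. Complement C4b had 97 UMIs in P301S and 0 in WT, at least 22.8-fold higher against a floor of 3 UMIs per library, and the MHC class II chaperone Cd74 had 75 and 0, at least 17.6-fold. Without mixed nuclei P301S held 18 C4b and 6 Cd74 UMIs and WT held 0 of either. Complement C1qa stood at 1044 CPM in P301S and 69.4 CPM in WT (ratio 15.1), and at 218 and 43.9 CPM without mixed nuclei.

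The microglial list as a whole summed to 391, 2103, 359 and 347 CPM in the members of P301S/EKO, P301S, EKO and WT. The P301S over WT ratio of the sum was 6.06 (4.84 to 7.68), and 4 of 4 tested microglial genes were called higher, while P301S/EKO over EKO was 1.09 (0.700 to 1.68). Without mixed nuclei the sums were 476, 387, 74.9 and 168 CPM, which put P301S/EKO highest, with ratios of 2.30 (1.37 to 3.96) for P301S over WT and 6.36 (2.99 to 15.1) for P301S/EKO over EKO. The oligodendrocyte list summed to 1035, 2267, 925 and 1070 CPM, and to 532, 516, 266 and 373 CPM without mixed nuclei. The astrocyte list summed to 338, 696, 139 and 363 CPM, and to 224, 443, 117 and 183 CPM. Outside the Sst gate the other GABAergic nuclei of P301S held C1qa at 609 CPM, against 174, 41.2 and 146 CPM in P301S/EKO, EKO and WT. The interferon response list summed to 412, 587, 296 and 314 CPM, and to 364, 218, 233 and 256 CPM without mixed nuclei.

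MHC class I genes, which neurons can also express, were read with that in view. The list summed to 454, 1038, 214 and 241 CPM in P301S/EKO, P301S, EKO and WT. P301S over WT was 4.31 (3.27 to 5.78) and P301S/EKO over EKO 2.12 (1.32 to 3.43), and without mixed nuclei 3.38 and 2.72, where the microglial sum had ratios of 2.30 and 6.36. Without members that held 2 or more microglial UMIs the class I ratio was 1.49 (0.956 to 2.34) for P301S over WT, an interval that included 1. For P301S/EKO over EKO it was 2.11 (1.19 to 3.76). The microglial ratios were then 2.33 (1.16 to 4.88) on 24 and 14 UMIs and 1.87 (0.683 to 5.20) on 10 and 9 UMIs. Members were dropped by these same microglial genes, so the remaining microglial ratios are bounded by the filter and cannot serve as a check on class I. H2-D1, a classical class I heavy chain, had 19, 160, 15 and 27 UMIs, found in 13, 35, 14 and 17 members. B2m, the shared light chain, stood at 84.5, 230, 18.9 and 36.7 CPM, and at 70.0, 105, 0 and 7.32 CPM without mixed nuclei. Both P301S libraries were above the library without P301S they are paired with, but the H2-D1 ratio of P301S over WT was 1.29 without members that held 2 or more microglial UMIs and 0.92 with nuclei thinned to 1000 UMIs.

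Genes lower in P301S over WT included Ntm (neurotrimin, an adhesion protein related to Opcml) at 2408 CPM in P301S and 4311 CPM in WT, a ratio of 0.559 (0.509 to 0.612), and 0.596 without mixed nuclei. It stood at 3729 CPM in P301S/EKO and 3103 CPM in EKO, so the other P301S comparison did not share the direction. Lrrtm4, a postsynaptic adhesion protein, had 19 UMIs in P301S and 39 in WT, a ratio of 0.343. For the endothelial gene Cldn5, 36 of 39 WT UMIs came from a single nucleus. Of 20 synaptic adhesion genes 1 was higher (Cntnap2) and 5 lower, where 13.2% and 5.42% of all genes were; of 12 tested without mixed nuclei 1 was higher and 0 lower.

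Other lists were counted against the same background, 13.2% higher and 5.42% lower in P301S over WT and 7.71% and 9.14% in P301S/EKO over EKO. Of 24 ribosomal protein genes 4 were higher and 0 lower in P301S over WT, a share of higher genes near that of all genes. The sum of the list had a ratio of 1.28 (1.18 to 1.39), and 1.36 (1.19 to 1.55) without mixed nuclei. Heat shock genes had 0 calls of 6 in P301S over WT and 0 of 4 in P301S/EKO over EKO. Of 18 oxidative phosphorylation genes 1 was lower in P301S over WT (Cox5a), and of 5 in P301S/EKO over EKO 1 was higher (Cox6a1). Unfolded protein genes had 0 calls of 4 and 1 of 3 in the same order, with the chaperone Hspa5 the lower one at 380 CPM in P301S/EKO and 598 CPM in EKO. No immediate early gene reached 50 UMIs in any comparison. The list of 16 such genes, which neurons induce with activity, summed to 338, 446, 308 and 527 CPM in P301S/EKO, P301S, EKO and WT. EKO over WT was 0.586 (0.413 to 0.820), and 0.719 (0.443 to 1.15) without mixed nuclei, while P301S/EKO over P301S was 0.758 (0.501 to 1.12) and 1.16 (0.677 to 1.95).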

How the data were processed

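Nuclei were profiled in 4 pooled hippocampal libraries, 1 per genotype. The deposited values are UMI counts per gene and barcode for 27998 genes; per the submitters' processing notes the authors used Cell Ranger, Seurat and mm10, and handling of intronic reads is not given in the sources used here. Gene lists and members were chosen with earlier results of these data known. Members were gated from the counts, summed per library, scaled to CPM by total UMIs and given exact Poisson intervals; ratios have exact conditional 95% intervals, which cover counting error only. Zeros were set against a floor of 3 counts. A ratio of 1.5-fold with at least 50 UMIs over both libraries was called.

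Interneuron gates were compared with edgeR 4.0.16 (TMM, filterByExpr, quasi-likelihood, library as block; 12 sums, 6 residual degrees of freedom), with DESeq2 1.42.0 as an alternative. The numbers pair the sums because the gates come from the same library. Gates under 20 nuclei in a library were left out, so the planned Pvalb comparison was dropped. On simulated counts of 2053 genes the step recovered 90% of 120 changed genes against Vip (2.7% false calls) and 93.3% against Lamp5 or Ndnf (4.3%). Only changed genes that passed the filter were counted. The planted changes were larger than several of the called ratios, such as that of Gria1, and the simulation had a fixed spread and no library effect. These recovery shares therefore do not hold for smaller changes. Doublets were scored with Scrublet in scanpy 1.11.5 and kept in the main values; its own threshold marked almost no nuclei, so the alternative removed the highest scores at 0.8% per 1000 barcodes. Python 3.11.15, scipy 1.17.1 and R 4.3.3 were used. Library totals ran from 8369762 to 14251675 UMIs.

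Named genes are the gate's genes, Apoe, Prnp and Mapt; markers; per comparison the 5 highest and 5 lowest whose interval lies wholly beyond 1.5-fold; up to 5 per direction called in both comparisons of a factor; up to 4 per list; and up to 12 per direction against all gates tested. Mitochondrial and sex-linked genes were to be left out; the X-linked Gria3 and Tenm1 are exceptions, chosen after their values were seen, as are the genes of counts of 5 or fewer outside the rule. Some genes of the lists and marker sets, though counted in them, are not reported here by name.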

Additional observations from a re-analysis of the deposited data

How the results depend on the processing

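Of 616 recomputed ratios of named genes between genotypes, 529 stayed within the spread of their counting error, 78 moved and 9 changed direction. Sst in P301S/EKO over P301S was 0.973 without mixed nuclei, 0.963 without nuclei holding 2 or more microglial UMIs and 0.868 after thinning. One P301S nucleus held 107 of that library's 1006 Sst UMIs. It was not mixed and held 1 microglial UMI, so it stayed in both of these filtered readings. H2-D1 was 0.92 after thinning in P301S over WT, and in P301S/EKO over P301S 1.05 with equal weight per nucleus, 1.74 without mixed nuclei and 2.5 after thinning. Fam19a1 in EKO over WT was 2.3 after thinning, and Tmem245 in P301S/EKO over EKO was 0.654 without mixed nuclei. The cause of these changes was not tested. The microglial setting, the thinned gate, leaving out the richest nucleus and leaving Sst out of the peptide list were chosen after seeing the data.

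With no minimum the called genes numbered 7838 in P301S over WT, 8135 in P301S/EKO over EKO, 9376 in P301S/EKO over P301S and 8612 in EKO over WT. With at least 5 Sst UMIs there were 239 in P301S over WT, 233 in P301S/EKO over P301S and 118 in EKO over WT. Without mixed nuclei there were 136, 72 and 97 in those comparisons, and without microglial nuclei 153 in P301S over WT and 84 in P301S/EKO over P301S; fewer nuclei leave fewer genes tested. The Sst share with at least 5 Sst UMIs was 15.8% in P301S, 11.8% in EKO and 10.6% in WT, after thinning 12.5%, 9.09% and 10.3%, and without mixed nuclei 18.8% in WT.

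Against the Vip gate the 72 genes became 46 with DESeq2, 113 with no filter and 42 with no replicate block (library left out of the fit), and 47 to 84 when 1 library was left out. Against the Lamp5 or Ndnf gate the 97 became 52 with DESeq2, 55 with no replicate block and 55 without mixed nuclei. When 1 library was left out there were 64 to 85. Without mixed nuclei this gate held only 19 nuclei in P301S/EKO and 11 in WT. It then entered the fit from P301S and EKO only, with 3 residual degrees of freedom. Of 396 gate ratios 360 kept their side of the threshold in the same direction, 35 lost it and 1 changed direction (Rgs12 over Lamp5 or Ndnf, log2 0.63 without mixed nuclei). Between genotypes no paired analysis was possible because each genotype is 1 library. P301S/EKO had the fewest gated UMIs, 94676, which limits both of its comparisons.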

Other observations

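Several abundant transcripts that are neither peptides nor glial markers differed widely between libraries in the Sst nuclei. Rnf121, a ubiquitin ligase, had 29 UMIs in P301S/EKO, 424 in P301S, 3 in EKO and 129 in WT, or 306, 1220, 18.9 and 527 CPM. Ttr, the transthyretin made by choroid plexus, had 20, 304, 2 and 45 UMIs in the same order. Without mixed nuclei Rnf121 stood at 406, 1346, 16.7 and 666 CPM and Ttr at 196, 830, 8.32 and 154 CPM. Both were lowest in EKO and highest in P301S on either reading.

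The non-coding transcripts Gm42418, Gm26917 and AY036118 also ran highest in P301S. Gm42418 stood at 127, 716, 81.8 and 298 CPM in P301S/EKO, P301S, EKO and WT, and at 141, 644, 146 and 267 CPM in the other GABAergic nuclei. Gm26917 stood at 475, 1907, 485 and 906 CPM in Sst nuclei and at 442, 2044, 468 and 919 CPM in the other GABAergic nuclei. AY036118 stood at 31.7, 285, 44.1 and 69.4 CPM in Sst nuclei and at 59.8, 287, 53.9 and 123 CPM in the others. For all 3 the order of P301S first and WT second was the same in both kinds of nuclei.

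Genes lower in both Apoe-deficient libraries included neuronal ones. Arpp21, a phosphoprotein of dopamine signalling, had ratios of 0.423 for EKO over WT and 0.306 for P301S/EKO over P301S, and 0.505 and 0.348 without mixed nuclei. Syt7, a calcium sensor of vesicle and granule release, had ratios of 0.477 for EKO over WT and 0.452 for P301S/EKO over P301S, and 0.479 and 0.366 without mixed nuclei.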
